A study of Mus musculus with 6 samples.

Results

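The genes described here encode both sides of the bridge that ties the nucleus to the cytoskeleton. SUN proteins span the inner nuclear membrane, and KASH proteins, also called nesprins, span the outer one. They were chosen by name: 8 symbols, namely Sun1, Sun2, Sun3, Spag4 and Sun5 for the SUN side and Syne1, Syne2 and Syne3 for the nesprins. Of these 8, 6 have a row among the 22770 gene rows of the deposited table, and footprints on Sun2 and Syne1 are not analysed here. The mean of 5 of the 6 genes reached 1 FPKM, and those 5 are among the 15578 rows that were tested. Syne3 lay under that limit and is described without a test in the main comparison.

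The samples are ribosome-protected fragments, the stretches of mRNA that ribosomes shield from nuclease, from round spermatids of mouse testis. There are 3 wild-type samples and 3 samples of the genotype labelled Eif5a SKO. All 6 were treated with cycloheximide in the lysis buffer, which holds ribosomes in place. The labels do not spell out SKO, the promoter behind it, the strain or the age of the animals, and the design text of the series, written for an accessibility assay, speaks of sorted cells from 3 mice in each group. EIF5A is a translation factor that helps ribosomes through difficult stretches of coding sequence, and the comparison asks how footprints on each gene differ when it is targeted.

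In the space between the nuclear membranes, trimers of SUN proteins hold the tails of nesprins, and the nesprins reach actin, plectin, kinesin or dynein in the cytoplasm. SUN1 and SUN2 are found in many cell types, and SUN1 anchors telomeres to the envelope during meiosis. SUN3, SPAG4 (also called SUN4) and SUN5 are largely proteins of the testis. In spermatids SUN3 and SPAG4 lie on the flank of the nucleus, where the manchette of microtubules shapes the head, and SUN5 lies at the base, where the tail is attached. Loss of SPAG4 gives round-headed sperm, and loss of SUN5 gives sperm whose heads detach from their tails.

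Stretches upstream of annotated starts are shown for 3 SUN genes. Spag4 and Sun1 are the tested SUN genes whose wild-type and SKO values, as deposited, did not overlap. Sun3, the partner of Spag4, is one whose values did. Values of Sun5 overlapped as deposited but not after the rescaling described below, and its stretch is not shown. The sequences are those of RefSeq, build GRCm38.p6, read 5′ to 3′ on the strand of the gene. Capitals mark the cAMP response element (CRE) half-site TGACG on either strand. Spag4 is chr2:156064963-156065212 on the plus strand, of which the last 25 bases lie inside the annotated gene span. Sun1 is chr5:139200387-139200563 on the plus strand, and Sun3 is chr11:9048992-9049241 on the minus strand.
Spag4: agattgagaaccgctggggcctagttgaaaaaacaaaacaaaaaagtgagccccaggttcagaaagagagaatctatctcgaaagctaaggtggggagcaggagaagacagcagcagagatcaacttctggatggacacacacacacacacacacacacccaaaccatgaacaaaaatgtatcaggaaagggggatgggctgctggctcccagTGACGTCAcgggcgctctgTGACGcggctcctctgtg
Sun1: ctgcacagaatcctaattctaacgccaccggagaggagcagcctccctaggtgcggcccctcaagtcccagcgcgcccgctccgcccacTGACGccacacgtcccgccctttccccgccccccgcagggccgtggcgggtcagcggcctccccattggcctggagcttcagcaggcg
Sun3: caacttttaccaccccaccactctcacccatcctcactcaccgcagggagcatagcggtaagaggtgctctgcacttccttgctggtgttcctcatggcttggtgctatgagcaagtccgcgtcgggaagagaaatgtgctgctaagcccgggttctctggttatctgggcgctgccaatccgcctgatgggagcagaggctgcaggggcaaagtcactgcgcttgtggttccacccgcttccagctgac

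All 8 genes had a window in the RefSeq table. In the 250 bases before the start, Spag4 held a full CRE, TGACGTCA, with its first base 37 bases before the start (position -37), and a further half-site at position -18. The half-site at -18 lies inside the annotated gene span. The full CRE counts as 2 overlapping half-sites, so Spag4 held 3 half-sites. A full CRE was present in 1.92% of 21263 windows of the same length before protein-coding genes, and 3 or more half-sites in 0.917%. Sun1 held 2 half-sites in its first window, at -161 and -63, of which the second lies inside the annotated gene span and is not shown. The windows of the other 6 genes, Sun5 among them, held 0 of either. A half-site was present in 20.2% of all windows. CREM, a transcription factor of spermatids, is known to bind this element, and these letters by themselves do not show binding. Of the other motifs searched on both strands, the GC box GGGCGG (42.6% of windows) occurred in the first window of Sun1, Sun2, Syne1 and Syne2. The CCAAT box CCAAT (35.4% of windows) occurred in the first window of Sun1, Sun2 and Sun3. The TATA box TATAAA (11.6% of windows) occurred in a second window each of Sun1 and Syne1 and in no first window.

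Footprint density on the 4 SUN genes was on average higher in SKO than in wild type and on the nesprin gene Syne2 slightly lower, but none of the 5 tested genes passed the test. The largest difference was on Spag4, whose SKO mean was 2.35 times the wild-type mean. Across all tested rows 0.128% passed at an adjusted p under 0.05 (20 rows; limma, Benjamini-Hochberg, two-sided). The threshold on the p-value before adjustment was met by 1 of the 5 genes, Spag4, and by 11% of all tested rows. In these bulk samples a change in the number of cells of a type and a change in RNA per cell cannot be told apart. Footprint density also depends on the amount of mRNA, and matched RNA levels are not analysed here.

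Spag4 (gene 245865, GRCm38 chromosome 2, 156065188 to 156069501) had 20.4, 17.6 and 22.8 FPKM in wild-type replicates 1, 2 and 3, against 38.6, 72.8 and 31.6 FPKM in SKO replicates 1, 2 and 3. FPKM counts the footprints on a gene relative to its length in kilobases and to the number of fragments the library mapped. All 3 SKO values lay above all 3 wild-type values, and SKO replicate 2 was far above the other SKO libraries. The means were 20.3 ± 2.62 FPKM in wild type against 47.7 ± 22.0 FPKM for SKO (SD, n = 3 each). The difference was 1.11 on the log2(FPKM + 1) scale (SE 0.42, 95% interval 0.18 to 2.04, limma, adjusted p = 0.365). By exact permutation (two-sided) p was 0.1, and no smaller p can come from the 20 ways to divide 6 samples into 3 and 3. Without SKO replicate 2 the log2 difference was 0.77 (limma, adjusted p = 0.639).

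Sun3 (gene 194974, chromosome 11, 9016043 to 9048991), whose protein pairs with SPAG4 in the spermatid envelope, had 13.9, 13.4 and 20.2 FPKM in wild type against 15.2, 30.5 and 22.6 FPKM for SKO. The groups overlapped: wild-type replicate 3 lay above SKO replicate 1. The means were 15.8 ± 3.75 and 22.8 ± 7.64 FPKM (SD, n = 3 each), a log2 difference of 0.47 (SE 0.39, 95% interval -0.42 to 1.35, limma, adjusted p = 0.700). Single libraries moved that difference: it was 0.24 without SKO replicate 2 and 0.72 without SKO replicate 1. The annotated gene Gm11992 overlaps Sun3, and whether the counting used strand is not given in the sources used here.

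Sun5 (gene 76407, chromosome 2, 153856188 to 153871365), the SUN gene of the head-tail junction, was the densest of the family. It had 30.1, 49.7 and 68.4 FPKM in wild type against 57.0, 93.5 and 78.1 FPKM for SKO. Wild-type replicate 3 lay above SKO replicate 1, so the groups overlapped, and wild-type replicate 1 was the lowest library. The means were 49.4 ± 19.2 and 76.2 ± 18.3 FPKM (SD, n = 3 each), a log2 difference of 0.66 (SE 0.44, 95% interval -0.32 to 1.64, limma, adjusted p = 0.622). Without wild-type replicate 1 it was 0.35.

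Sun1 (gene 77053, chromosome 5, 139200564 to 139249839), the general SUN gene with a role at meiotic telomeres, had 12.4, 18.3 and 17.7 FPKM in wild type against 22.2, 26.1 and 25.3 FPKM for SKO. The groups did not overlap, and the SKO libraries lay close together. The means were 16.1 ± 3.22 and 24.5 ± 2.04 FPKM (SD, n = 3 each), a log2 difference of 0.59 (SE 0.35, 95% interval -0.20 to 1.38, limma, adjusted p = 0.579; exact permutation p = 0.1).

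**Figure D1:**
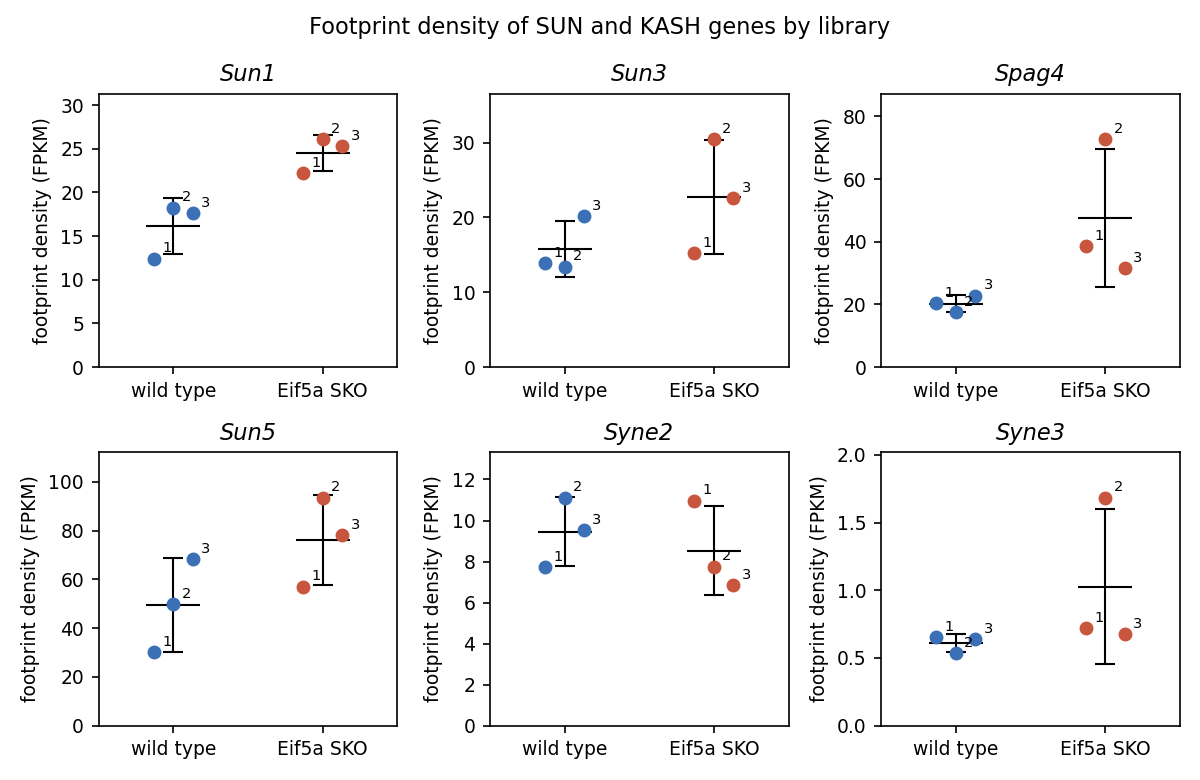
Footprint density (FPKM, each panel from 0) of the 6 SUN and KASH genes in the 3 wild-type (blue) and 3 Eif5a SKO (red) libraries, numbered by replicate, with the mean and SD of each group as bars. With the values as deposited, Spag4, Sun1 and Syne3 show no overlap between groups, SKO being higher (10.9% of all tested rows do). SKO replicate 2 is the highest library for every gene but Syne2.

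On the nesprin side, Syne2 (gene 319565, chromosome 12, 75818318 to 76110928) encodes the giant nesprin-2, which binds actin. It had 7.74, 11.1 and 9.52 FPKM in wild type against 11.0, 7.75 and 6.85 FPKM for SKO. The ranges of the groups were nearly the same. The means were 9.46 ± 1.69 and 8.52 ± 2.17 FPKM (SD, n = 3 each), a log2 difference of -0.15 (SE 0.35, 95% interval -0.93 to 0.64, limma, adjusted p = 0.920). Leaving out 1 library at a time gave differences from -0.32 (without SKO replicate 1) to -0.02 (without SKO replicate 3). The interval holds both a rise and a fall of moderate size, so the data do not show that Syne2 stayed at its level.

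Syne3 (gene 212073, chromosome 12, 104929933 to 105010587) encodes nesprin-3, which binds plectin. It had 0.656, 0.535 and 0.636 FPKM in wild type against 0.718, 1.68 and 0.677 FPKM for SKO. As deposited, all SKO values lay above the wild-type values, but 2 of them by little, and SKO replicate 2 carried most of the difference. With no filter on low values its log2 difference was 0.30 (SE 0.28, limma, adjusted p = 0.797). Multiplied by the estimated relative depth of each library, the values were 0.516, 0.407 and 0.401 in wild type against 0.718, 0.846 and 0.522 for SKO. By that estimate the values of SKO replicates 1 and 2 stand for similar numbers of reads. The depth of SKO replicate 2 rests on 132 of the 2244 rows of low FPKM compared. Annotated genes also overlap Syne2 (Gm40447, Mir5101) and Syne3 (Gm31742).

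Groups did not overlap, with SKO higher, in 2 of the 5 tested genes, and in 10.9% of all tested rows. They did not overlap with SKO lower in 0 of the 5 genes and in 4.78% of all tested rows. The median log2 difference over the 5 genes was 0.59 (0.39 without wild-type replicate 1), with 4 of 5 above 0. Over all tested rows the median was 0.13, with 59.4% above 0.

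Scaling moved these values. FPKM are relative, and the libraries differed in how much of their signal lay in protein-coding rows, from 18.2% to 32.9%. Each library was therefore also divided by a TMM-type factor, a trimmed mean of its ratios to a reference library. These factors ran from 0.812 to 1.31, the highest being that of SKO replicate 2, and brought the median of all rows to 0.003. On that scale the log2 difference of Spag4 was 0.95 (SE 0.28, limma, adjusted p = 0.158), of Sun5 0.49 (adjusted p = 0.369), of Sun1 0.43 (adjusted p = 0.396), of Sun3 0.30 (adjusted p = 0.557) and of Syne2 -0.29 (adjusted p = 0.729). Of the 5 genes 0 passed, against 1.02% of all tested rows.

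The scaled values of Sun5 drew together in SKO. They were 37.1, 53.6 and 61.5 in wild type against 67.2, 71.4 and 72.6 for SKO, so that the groups no longer overlapped. Scaled Spag4 was 25.1, 19.0 and 20.5 in wild type against 45.6, 55.6 and 29.4 for SKO, again without overlap. For Sun1 the scaled gap was narrow, with wild-type replicate 2 at 19.7 and SKO replicate 2 at 19.9. Syne3, which was not tested, overlapped once scaled, with wild-type replicate 1 at 0.808 and SKO replicate 3 at 0.630. In all, 3 of the 5 genes had SKO above wild type without overlap after scaling (11.6% of all tested rows) and 0 had SKO below (9.85% of all tested rows).

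**Figure D2:**
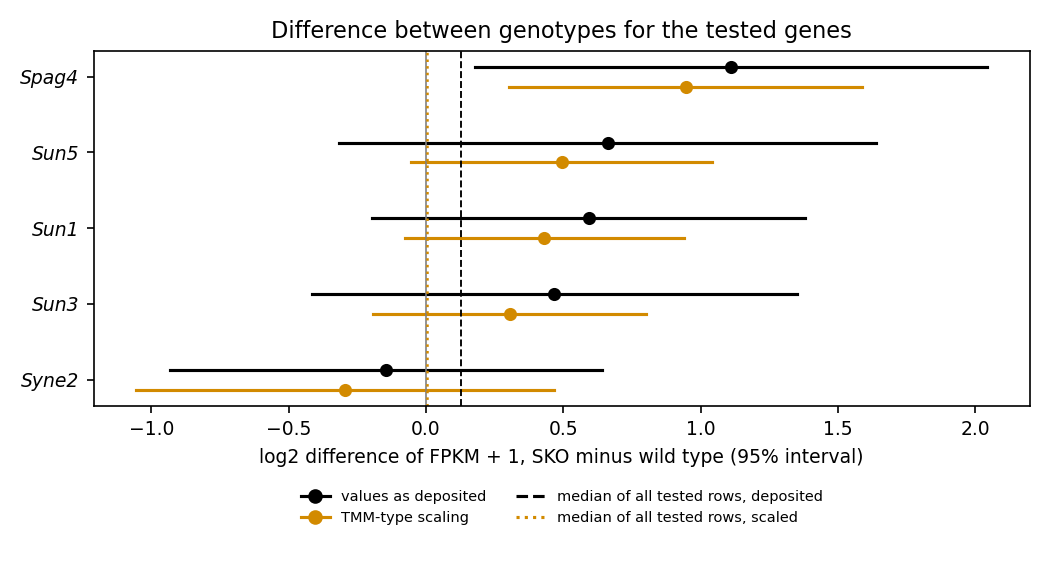
Log2 difference of FPKM + 1, SKO minus wild type, with its 95% interval from limma, for the 5 tested genes, with the values as deposited (black) and after TMM-type scaling (orange). The intervals of Spag4 lie above 0 on both scales before adjustment for the number of rows, those of the other 4 genes include 0, and the vertical lines give the median of all tested rows, 0.13 and 0.003.

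Since FPKM is given per length, levels were set side by side between genes. Which length was used for each gene is not given in the sources used here, so the order between genes is approximate. Sun5 was the densest of the 6 genes in 6 of 6 libraries and Spag4 was next in 5 of 6. Syne2 was next to lowest and Syne3 lowest in 6 of 6. In wild type the range of Sun5, 30.1 to 68.4 FPKM, lay above that of Spag4, 17.6 to 22.8 FPKM. Spag4, Sun1 and Sun3 were neighbours whose ranges overlapped. In SKO the order of the means was the same, but the range of Spag4, 31.6 to 72.8 FPKM, overlapped that of Sun5 and lay above that of Sun1. In both groups Sun1 and Sun3 overlapped, Syne2 lay below Sun3, and Syne3 lay below Syne2. Over all 6 libraries the mean of Sun5 was above 95.1% of the 11107 tested protein-coding rows, that of Spag4 above 90.7%, Sun1 above 84.8%, Sun3 above 83.9% and Syne2 above 70% of them.

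Ratios between genes of the same library do not depend on library scaling, and 6 pairs of SUN and KASH genes were taken after the values were seen. Spag4 over Sun3, the ratio of the SUN partners on the flank of the nucleus, was 1.47, 1.31 and 1.13 in wild type against 2.54, 2.39 and 1.40 for SKO. SKO replicate 3 lay within the wild-type range, so the groups overlapped. Spag4 over Sun5 was 0.677, 0.354 and 0.334 in wild type against 0.678, 0.778 and 0.405 for SKO, also with overlap. Sun5 over Sun3 was 3.09 ± 0.814 in wild type and 3.43 ± 0.343 in SKO (SD, n = 3 each), a difference within the spread of the libraries. The summed FPKM of the 4 SUN genes was 76.8, 99.0 and 129 in wild type against 133, 223 and 158 for SKO. Of that sum Spag4 made up 20.7% ± 5.09 in wild type and 27.3% ± 6.49 in SKO, and Sun5 47.5% ± 7.30 and 44.8% ± 4.16 (SD, n = 3 each). These shares overlapped between the groups.

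**Figure D3:**
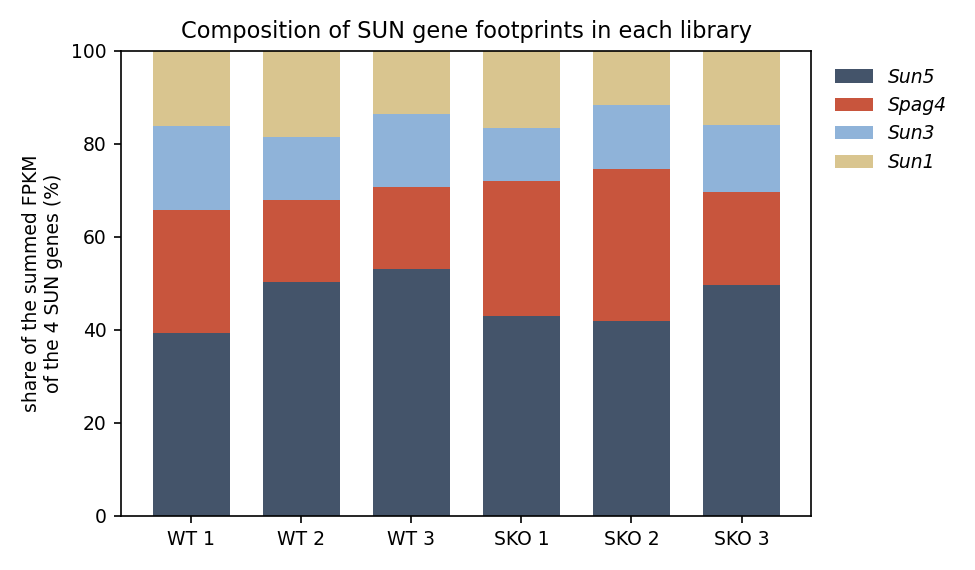
Share of the summed FPKM of Sun1, Sun3, Spag4 and Sun5 held by each gene (vertical axis, percent, from 0 to 100) in each of the 6 libraries. Sun5 is the largest part in every library, from 39.2% to 53.0%, and Spag4 ranges from 17.7% to 26.5% in wild type and from 20.1% to 32.7% in SKO.

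Among the 6 pairs, the groups did not overlap only for Syne2 over Sun1, a ratio of a KASH gene to a general SUN gene. It was 0.623, 0.608 and 0.539 in wild type against 0.494, 0.297 and 0.271 for SKO, with means of 0.590 ± 0.0451 and 0.354 ± 0.122 (SD, n = 3 each). This pair was picked out after its values were seen and has no test, and no share over other ratios stands beside it. Sun1 by itself did not overlap between the groups either, with the values as deposited.

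Genes with the most similar pattern over the 6 libraries were looked up among 4663 protein-coding rows whose mean was 5 FPKM or more, by Pearson r of log2(FPKM + 1). Rows with Gm, Rik or LOC names and rows with the same values as another row were left out of this search. The values are descriptions over 6 points that share library depth and genotype. For Spag4 they were Nup153, a nuclear pore gene (r = 0.9965), and Rbm4, an RNA-binding protein gene (r = 0.9908). Nup153 had 23.1, 22.3 and 29.7 FPKM in wild type against 50.9, 107 and 43.1 FPKM for SKO. For Sun3 they were the G protein subunit gene Gnb2 (r = 0.9952) and Dap (r = 0.9951), and for Sun5 Mroh4 (r = 0.9979) and Cmtm2a (r = 0.9958). Of the 4663 rows, an r over 0.9 was reached by 136 with Spag4, 597 with Sun3 and 646 with Sun5. Such likeness was thus less common for Spag4 than for Sun3 and Sun5.

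Other genes of the nuclear envelope and its links were taken from lists of known members. Of 45 tested genes in 5 lists, 0 rose and 0 fell (limma, adjusted p under 0.05), 2 had an unadjusted p under 0.05 (11% of all tested rows), and the median log2 difference was 0.03, with 25 of 45 above 0. With TMM-type scaling that median was -0.10, against 0.003 over all rows, and 5 genes had an unadjusted p under 0.05 (15.6% of all tested rows). These were Fam209 and Oaz3, higher in SKO, and Cep112, Kif5b and Dync1h1, lower in SKO, and 0 of the 5 passed after adjustment. The lamina and inner membrane list had 19 of 19 genes tested, with 12 above 0, a median of 0.11 (-0.02 with TMM-type scaling) and adjusted p-values of at least 0.607 (limma). Tor1aip1, whose product activates torsin ATPases, had 15.8 ± 3.61 FPKM in wild type against 23.3 ± 9.03 FPKM for SKO. Lmnb2, which encodes lamin B2 and the germ cell form lamin B3, had 11.2 ± 4.66 and 13.2 ± 3.68 FPKM (SD, n = 3 each). Lmna, the A-type lamin gene, was low, at 3.21, 3.22 and 3.32 FPKM in wild type against 2.94, 7.12 and 5.55 FPKM for SKO. Each of the 19 genes overlapped between the groups.

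The list of the spermatid envelope and the head-tail coupling apparatus had 13 tested genes, 8 above 0, and the median was 0.16 (-0.004 with TMM-type scaling). It held both genes with an unadjusted p under 0.05 as deposited. The same 2 of its 13 tested genes lay higher in SKO without overlap, against 10.9% of all tested rows. In each of the other envelope lists 0 genes did so. Fam209 encodes an inner nuclear membrane partner of DPY19L2, the protein that anchors the acrosome to the nucleus. It had 38.4, 37.0 and 80.5 FPKM in wild type against 91.5, 230 and 159 FPKM for SKO. The groups did not overlap, and the difference was 1.60 (SE 0.50, limma, adjusted p = 0.294; 1.44 and adjusted p = 0.0743 with TMM-type scaling). Fam209 passed under 2 of 24 alternatives, at 1.31 with quantile normalization (adjusted p = 0.0310) and at 1.37 with equal sums over protein-coding rows (adjusted p = 0.0247). Dpy19l2 itself had 34.2 ± 12.1 FPKM in wild type against 38.3 ± 13.3 FPKM for SKO, a log2 difference of 0.16 (limma, adjusted p = 0.932). The ratio of Fam209 to Dpy19l2 was 1.81, 1.02 and 1.785 in wild type against 3.72, 4.49 and 4.07 for SKO, without overlap, and this pair too was taken after the values were seen.

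Oaz3, the antizyme gene of spermatids whose loss detaches sperm heads, had 5.94, 4.82 and 11.5 FPKM in wild type against 14.9, 21.2 and 24.6 FPKM for SKO. The groups did not overlap, SKO being higher (10.9% of all tested rows do), and the log2 difference was 1.39 (SE 0.41, limma, adjusted p = 0.275). Hook1, a microtubule linker of the manchette, had 114 ± 40.4 and 88.4 ± 20.8 FPKM. Spata6, a gene of the sperm neck, had 11.5, 43.6 and 95.5 FPKM in wild type against 98.2, 86.1 and 84.8 FPKM for SKO, so its spread lay mostly within wild type.

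The 8 cytoskeletal partners of nesprins were all tested, with 3 above 0 and a median of -0.20. The dynein heavy chain gene Dync1h1 had 31.6 ± 6.83 and 24.1 ± 8.19 FPKM, and the kinesin light chain gene Klc2 10.7 ± 2.22 and 17.2 ± 7.14 FPKM (SD, n = 3 each). In the list of meiotic telomere attachment 3 genes were tested, with a median of -0.39. The telomere adaptor gene Terb1 had 2.14 ± 0.588 and 1.39 ± 0.369 FPKM and Cdk2, whose kinase sits at telomeres, 2.83 ± 0.958 and 2.95 ± 1.43 FPKM. Of the other SUN and KASH genes, Suco, a SUN-domain gene of the endoplasmic reticulum, had 35.3 ± 16.4 and 76.7 ± 50.4 FPKM. Kash5, listed as Ccdc155, encodes the meiotic partner of SUN1 that binds dynein. It had 8.57, 12.3 and 9.33 FPKM in wild type against 8.18, 6.47 and 8.34 FPKM for SKO, a log2 difference of -0.35 (limma, adjusted p = 0.747). All SKO values lay below all wild-type values as deposited (4.78% of all tested rows do), and the groups overlapped after TMM-type scaling. No other tested gene of the envelope lists lay below without overlap as deposited.

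**Figure D4:**
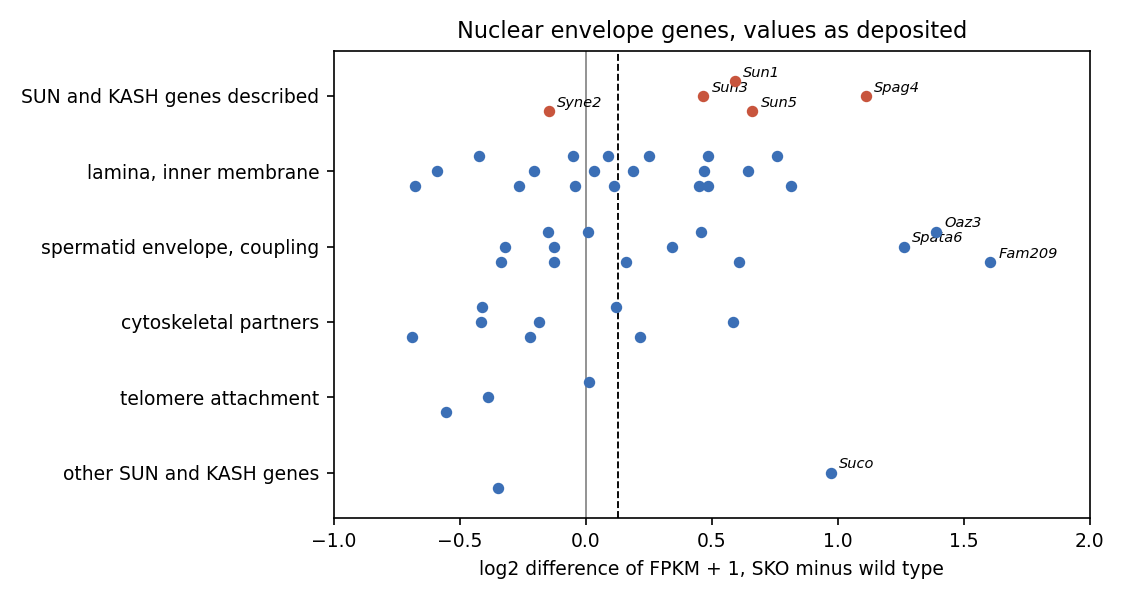
Log2 difference of FPKM + 1, SKO minus wild type, with the values as deposited, for the 5 tested SUN and KASH genes (red) and the 45 tested genes of 5 nuclear envelope lists (blue), 1 point per gene, spread vertically for legibility. The dashed line is the median of all tested rows, 0.13, and Fam209 at 1.60, Oaz3 at 1.39 and Spata6 at 1.26 lie farthest to the right.

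Markers of the labelled cell type and of other testis cells were set beside these values. Summed round spermatid markers ranged from 1024 to 1933 FPKM (wild type) and from 1243 to 2743 FPKM (SKO). Most of that sum came from acrosome genes: Acrbp had 548 ± 197 FPKM in wild type against 686 ± 291 FPKM for SKO, and Acrv1 403 ± 128 against 628 ± 236 FPKM (SD, n = 3 each), both with overlap. Of the 10 markers 9 were above 4 FPKM in every library, and Tssk6 was near 0 in wild-type replicate 3 and under the filter. Of the 9 tested, 5 were above 0, the median was 0.21 and 0 passed (limma, adjusted p under 0.05). An unadjusted p under 0.05 was reached by 2, Spaca1 and Catsper3, both higher in SKO (11% of all tested rows). After TMM-type scaling 2 lay above wild type without overlap, again Spaca1 and Catsper3 (11.6% of all tested rows). Another 2, Tnp1 and Prm2, lay below without overlap (9.85% of all tested rows). Summed spermatocyte markers ranged from 122 to 240 FPKM and from 120 to 188 FPKM. Sums of the other lists did not overlap between the genotypes. The Sertoli list (4 of 10 markers in the table) ran from 16.0 to 26.5 FPKM (wild type) and from 62.7 to 85.7 FPKM in SKO. The Leydig list (7 of 7) ran from 13.6 to 18.6 and from 61.2 to 118 FPKM, and the peritubular and connective tissue list (4 of 7) from 4.54 to 6.19 and from 25.8 to 39.2 FPKM. Single markers lay higher in SKO without overlap for 3 of 4 Sertoli, 5 of 7 Leydig and 4 of 4 peritubular genes (10.9% of all tested rows). Amhr2 of the Sertoli list and Star and Lhcgr of the Leydig list overlapped. The blood, endothelial and macrophage list (5 of 8) differed the other way, from 38.9 to 80.1 FPKM (wild type) and from 12.5 to 33.1 FPKM in SKO. That sum came mostly from the globin genes Hba-a1, Hbb-bs and Hbb-bt, while the macrophage genes Cd68 and Adgre1 overlapped between the groups. The endothelial markers of the list and the leukocyte gene Ptprc were not analysed here. Of the tested markers in these 4 lists 1 rose, Dcn of connective tissue, and 0 fell (limma, adjusted p under 0.05; 0.128% of all tested rows passed). With TMM-type scaling 3 rose, Dcn, Acta2 of smooth muscle and the Sertoli marker Clu, and 0 fell (1.02% of all tested rows passed). Sun1, Syne2 and Syne3 are used by many somatic cells, and the part of those cells in the values of these genes was not tested.

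**Figure D5:**
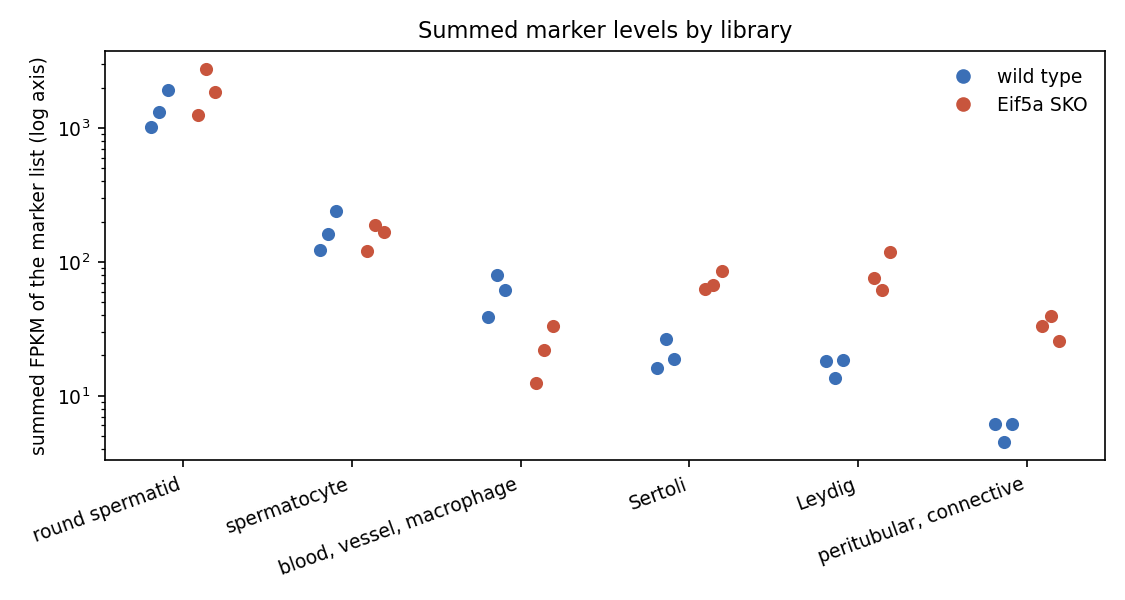
Summed FPKM of 6 marker lists (vertical log axis) in the 3 wild-type (blue) and 3 SKO (red) libraries. Sertoli, Leydig and peritubular sums are higher in all SKO libraries, the blood, vessel and macrophage sum, mostly globin, is lower, and the round spermatid and spermatocyte sums overlap.

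Of the facts on the whole series that bear on these values, the labels were checked on Eif5a, at 48.3 ± 13.9 FPKM in wild type against 2.25 ± 0.642 FPKM for SKO (SD, n = 3 each; limma, adjusted p = 0.00641). How many reads each library held is unknown, but the most common ratio between libraries among rows of low FPKM put their depths, relative to SKO replicate 1, between 0.503 and 1, the lowest being SKO replicate 2, the library with the highest FPKM of Sun1, Sun3, Spag4, Sun5 and Syne3. Libraries of the same genotype had Spearman correlations of 0.768 to 0.798 across genes, and libraries of different genotype 0.728 to 0.761; genes are not independent replicates.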

How the data were processed

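Ribosome footprints of 6 round spermatid samples were given as FPKM, which the authors computed and deposited as 1 value per gene symbol and library. Per the submitters' processing notes the tools were cutadapt, Bowtie2, STAR and Cufflinks, on build mm10. Their settings, the annotation and the handling of reads shared between genes: not given in the sources used here. Columns named cKO were matched to the SKO samples by genotype and replicate number.

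The 15578 rows whose mean reached 1 FPKM entered a two-sided limma fit (limma 3.58.1, R 4.3.3, eBayes with a mean-variance trend) of log2(FPKM + 1). Its p-values were adjusted by Benjamini-Hochberg over those rows, and 0.05 was the threshold. A pseudocount of 1 understates changes of low genes. The fit was tested on simulated data. Nothing in the labels ties each sample to a separate animal, so p-values speak only for the spread among the 6 samples, which may be technical. TMM-type factors left out, at either end, a share of 0.3 by ratio and 0.05 by level. Relative depth was the commonest ratio between libraries among rows under 1 FPKM. Correlations of deviations between samples of the same replicate number were 0.0926, 0.0002 and 0.0243, so the numbers were not taken as pairs.

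Genes, lists and tests were chosen with earlier results of these data known. Named genes were all members, in each list the 2 genes with the highest mean where none passed, and the 2 rows most like each spermatid SUN gene. Lmna, Dpy19l2, Oaz3, Spata6, Cep112, Kif5b, Clu, Acta2 and Tssk6 were added after the values were seen. So were Spaca1, Catsper3, Tnp1, Prm2, Star, Lhcgr and Amhr2, the blood markers and all ratios. Alternatives were other pseudocounts, filters, scalings and variance models, the replicate block, rows of identical values counted once, and leaving out each library. Footprints on Sun2, Syne1 and, of the envelope lists, Cntrob, Speedya, Syne4 and Irag2 were not analysed here, and Terb2 lay under the filter.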

Additional observations from a re-analysis of the deposited data

How the results depend on the processing

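Under the 24 alternatives run, 0 of the tested SUN and KASH genes passed, and each kept its direction. The variance models, the filters, the replicate block and the single counting of identical rows leave a gene's log2 difference unchanged. Those alternatives could therefore not alter a direction, and only the pseudocounts, the scalings and the left-out libraries could. The log2 difference ran from 0.72 to 1.35 for Spag4 (adjusted p from 0.158 to 0.701), from 0.34 to 0.69 for Sun1, from 0.19 to 0.72 for Sun3, from 0.29 to 0.93 for Sun5 and from -0.62 to -0.02 for Syne2 (limma). The median over the tested genes ran from 0.33 to 0.72. The replicate block, a pairing that the data did not bear out, gave 5 called rows and none of the SUN and KASH genes among them. Of the envelope list genes 1 passed with quantile normalization and 1 with equal sums over protein-coding rows, Fam209 in both, at 1.31 and 1.37.

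The count of all called rows, 20, depended on scaling, though not under each of the 4 tried. It was 16 with equal sums over all rows (TPM), 159 with TMM-type scaling (119 higher, 40 lower), 446 with quantile normalization and 517 with equal sums over protein-coding rows. It was 63 with robust eBayes and 86 with a mean of at least 5 FPKM. It was 5 with no filter, 4 with a pseudocount of 5 and 9 with rows of identical values counted once. With 1 library left out it ran from 4 to 31: 6, 10 and 4 without wild-type replicates 1, 2 and 3, and 17, 31 and 13 without SKO replicates 1, 2 and 3. With TMM-type scaling as well, a combination chosen after seeing the data, these counts were 28, 8, 4, 10, 23 and 13. Higher rows were 85% of calls with deposited values, 74.8% with TMM-type scaling, 55.6% with quantile normalization and 60.9% with equal protein-coding sums, and 81.2% with equal sums over all rows. The cause was not tested. The median of all rows moved from 0.13 to between -0.04 and 0.003 under the 4 scalings.

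Depth limits Syne3 most, which lay under the filter.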
